A study of Rattus norvegicus with 4 samples.

Results

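The 9 genes described here encode the vascular endothelial growth factor (VEGF) and angiopoietin ligands Vegfa, Angpt1 and Angpt2, and the receptors Kdr, Flt1, Nrp1, Nrp2, Tek and Tie1. They were chosen by symbol, each matched 1 row, and they are 9 of the 13261 rat genes used. RNA came from sieved glomeruli of 4 male Wistar rats weighing about 150 to 175 g, each given Adriamycin (ADR, doxorubicin) by vein, an anthracycline that injures podocytes and is used as a rodent model of nephrotic syndrome. The 4 animals, called replicates 1 to 4, form the only group; their age, genotype and ADR dose are not labelled, harvest is labelled as day 11 or 21 without saying which, and animals without ADR were not analysed here. The values therefore describe levels in ADR-treated glomeruli and differences between animals, and carry no direction relative to healthy tissue.

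In the glomerulus, podocytes wrap the capillaries and secrete VEGF-A, which crosses the basement membrane to reach the fenestrated endothelium on the other side. The receptor tyrosine kinase KDR (VEGFR2) carries most of the endothelial VEGF-A signal, FLT1 (VEGFR1) binds VEGF-A tightly but signals weakly and is also made as a soluble decoy, and the neuropilins NRP1 and NRP2 act as co-receptors. A parallel system uses the endothelial kinase TEK (TIE2) and its partner TIE1: angiopoietin 1 activates TEK and stabilises vessels, whereas angiopoietin 2, released by endothelial cells, can oppose it depending on context.

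Values are given as CPM, that is, reads per 1000000 reads in the listed genes; log2 values are the deposited ones, which contain an added 0.5 reads. Replicates 1 to 4 held between 13566962 and 16207027 reads in the genes used, and mitochondrial genes took between 7.63% and 12.8% of them, with the highest share in replicate 2. No member had fewer than 126 reads in any animal, and 9 of 9 had a log2 value of at least 1 in each. The glomerular label was checked with marker lists. Of 19 podocyte marker symbols 18 were found, with a summed level of 8503 to 14989 CPM in the 4 animals. The symbol not found was Kirrel, an older name of Kirrel1, which was measured. Of 22 endothelial markers 20 were measured, at 5963 to 8199 CPM, and Pecam1 and Cldn5 were not among the listed genes. Markers of the proximal tubule, which sieving can carry over, were measured for 12 of 12 genes and summed to 3959 to 7826 CPM, lowest in replicate 3. Mesangial and pericyte markers (10 of 12) summed to 2068 to 2646 CPM and leukocyte markers (8 of 10) to 1034 to 1323 CPM. No measured marker in these lists was at 0.

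The levels were not divided by transcript length, because lengths of these transcripts were not used here, so the genes are not put in order against each other. Counts per gene also do not separate splice forms, such as full-length and soluble Flt1 or the Vegfa isoforms.

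Vegfa (ENSRNOG00000019598), the podocyte-made ligand, stood at 1161, 914, 1297 and 1207 CPM in replicates 1 to 4, a mean of 1145 ± 164 (SD, n = 4). Replicate 2 lay below the other 3 animals, which were within 0.16 of each other on the log2 scale. Between replicates 3 and 2 the ratio was 1.42, with a 95% Clopper-Pearson interval from counting error alone of 1.39 to 1.45.

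Kdr (ENSRNOG00000046829), the main signalling receptor for VEGF-A, stood at 1602, 1504, 2194 and 1828 CPM, a mean of 1782 ± 307 (SD, n = 4). It was highest in replicate 3 and lowest in replicate 2, as Vegfa was. Flt1 (ENSRNOG00000000940), the high-affinity receptor and decoy, had 580.0, 716, 775 and 585 CPM, a mean of 664 ± 97.1 (SD, n = 4). Flt1 thus fell into pairs, with replicates 2 and 3 above replicates 1 and 4, and unlike Vegfa and Kdr it was not low in replicate 2.

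Nrp1 (ENSRNOG00000010744), the co-receptor that presents VEGF-A to KDR and also binds class 3 semaphorins, had 527, 515, 761 and 834 CPM, a mean of 659 ± 162 (SD, n = 4). Replicates 3 and 4 lay above replicates 1 and 2, and the ratio of highest to lowest, 1.62 (95% Clopper-Pearson interval 1.57 to 1.66, counting error only), was the widest of the 6 receptors. Nrp2 (ENSRNOG00000031232), which serves lymphatic VEGF signalling and semaphorins, had 50.1, 42.9, 49.4 and 49.5 CPM, a mean of 48.0 ± 3.39 (SD, n = 4). Replicates 1, 3 and 4 differed by at most 0.02 on the log2 scale, and replicate 2 lay 0.20 below them.

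Tek (ENSRNOG00000008587), the angiopoietin receptor, had 620, 791, 738 and 669 CPM, a mean of 704 ± 75.2 (SD, n = 4), and was the only member highest in replicate 2. Tie1 (ENSRNOG00000020173), its partner receptor, had 643, 643, 776 and 614 CPM, a mean of 669 ± 72.7 (SD, n = 4). Replicate 3 stood above the other 3 animals, whose Tie1 values lay within 0.07 on the log2 scale. The log2 difference between Tek and Tie1 was -0.05, 0.30, -0.07 and 0.12 in replicates 1 to 4, so their ratio was 1.23 against 0.951 in replicates 2 and 3.

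Angpt1 (ENSRNOG00000005854), the TEK agonist, was counted with 235, 126, 161 and 171 reads, or 17.3, 7.77, 10.5 and 11.2 CPM, a mean of 11.7 ± 4.03 (SD, n = 4). Replicate 1 was 2.23 times replicate 2 (95% Clopper-Pearson interval 1.79 to 2.79, counting error only), the widest ratio of the 9 genes and also the one with the fewest reads behind it. Angpt2 (ENSRNOG00000016696), the context-dependent antagonist, had 56.4, 43.5, 53.3 and 69.5 CPM, a mean of 55.7 ± 10.7 (SD, n = 4). Its highest animal was replicate 4 and its lowest replicate 2, at a ratio of 1.60 (95% Clopper-Pearson interval 1.45 to 1.76). The 3 ligands thus shared replicate 2 as their lowest animal, while each had a different highest animal. Also lowest in replicate 2 were 3 of the 6 receptors, 17 of 18 podocyte markers and 31.5% of all genes.

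**Figure D1:**
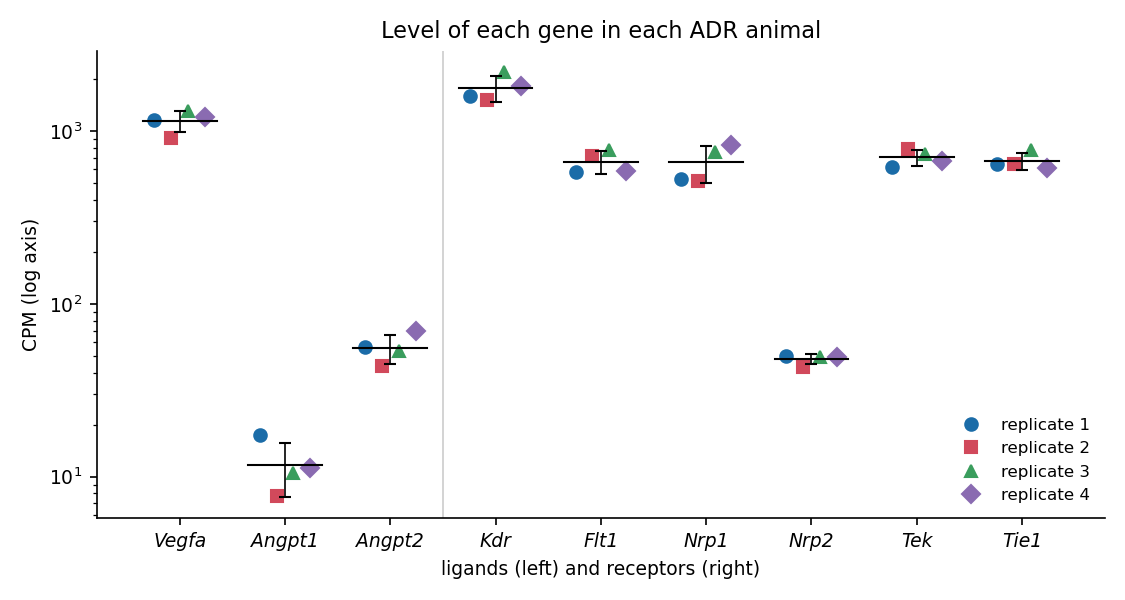
CPM on a log axis for the 3 ligands (left) and 6 receptors (right) in each of the 4 ADR animals; symbols are animals, horizontal bars the mean and whiskers the SD over 4 animals. Vegfa is lowest in replicate 2 at 914 CPM, and Angpt1 runs from 7.77 CPM in replicate 2 to 17.3 CPM in replicate 1.

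Vegfa, Kdr, Flt1 and Tie1 had their highest value in replicate 3, also with median-of-ratios scaling and with mitochondrial genes left out of the total. Over all 13261 genes, 29.6% were highest in that animal, as were 16 of 20 endothelial markers, while 12 of 12 proximal tubule markers were lowest there; the part of these in the pattern was not tested. Promoter sequences of these 4 genes are shown because they were highest in the same animal; RefSeq promoters (build GRCr8, matched by symbol) were found for 6 of the 9 members, and Tek, Angpt1 and Angpt2 were not among them. Each line gives the 250 bases before the transcription start, 5′ to 3′ on the gene's strand, and for Vegfa the first of its 2 listed starts. Capitals mark the GC box GGGCGG, the core bound by SP1, and the hexamer AGGAAG, a form of the core bound by ETS factors, each on either strand.
Vegfa, chr9:22452604-22452853, + strand: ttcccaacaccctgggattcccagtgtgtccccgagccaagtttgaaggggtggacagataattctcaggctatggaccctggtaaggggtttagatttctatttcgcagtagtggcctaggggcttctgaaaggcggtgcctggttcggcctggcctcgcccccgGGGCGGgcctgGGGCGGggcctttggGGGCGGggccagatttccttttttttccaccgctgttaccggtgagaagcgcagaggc
Kdr, chr14:32571813-32572062, + strand: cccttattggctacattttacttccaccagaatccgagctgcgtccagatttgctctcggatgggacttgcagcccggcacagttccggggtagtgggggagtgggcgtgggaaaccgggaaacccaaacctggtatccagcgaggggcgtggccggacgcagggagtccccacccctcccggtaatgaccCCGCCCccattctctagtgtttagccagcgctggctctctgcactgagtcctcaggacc
Flt1, chr12:12333180-12333429, + strand: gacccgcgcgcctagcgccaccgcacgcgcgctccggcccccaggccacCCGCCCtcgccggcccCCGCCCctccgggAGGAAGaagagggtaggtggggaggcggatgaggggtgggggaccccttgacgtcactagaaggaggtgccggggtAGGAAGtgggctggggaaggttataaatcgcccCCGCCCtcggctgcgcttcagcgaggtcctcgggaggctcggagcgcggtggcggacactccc
Tie1, chr5:137304982-137305231, - strand: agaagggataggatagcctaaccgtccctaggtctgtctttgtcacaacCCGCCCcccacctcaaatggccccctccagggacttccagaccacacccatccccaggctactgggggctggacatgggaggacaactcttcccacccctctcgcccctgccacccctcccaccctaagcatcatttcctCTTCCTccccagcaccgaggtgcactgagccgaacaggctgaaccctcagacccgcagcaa

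The Vegfa window held 3 GC boxes, the nearest beginning 58 bases before the start. Flt1 also had 3 GC boxes, whereas Kdr and Tie1 had 1 each; among all 33469 promoter windows of the same length, 30.5% held at least 1. The ETS hexamer occurred 2 times for Flt1, 1 time for Tie1 and 0 times for Vegfa and Kdr, against 29.5% of all windows with a match. No base was shared between matches of these motifs. The hypoxia-inducible factor (HIF) core ACGTG, found in 16.6% of all windows, matched in 0 of the 4 windows shown, and the other Vegfa start and the Nrp1 and Nrp2 windows held none of the 3 motifs. GC content was 60.4% for Vegfa, 61.6% for Kdr and Tie1 and 73.2% for Flt1, against a median of 51.2% over all windows. These are matches of letters and describe the sequence only.

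The spread between animals was next set against counting error and against other genes. A chi-square test of the recovered reads, adjusted by Benjamini-Hochberg over all genes, found variation beyond Poisson sampling for 9 of the 9 members. The same test called 69.5% of all genes. The largest adjusted p among members was that of Nrp2, 0.0162 (chi-square test on reads), and without replicate 2 it was 0.970. Leaving mitochondrial genes out of the total gave Nrp2 an adjusted p of 0.209.

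Whether a member varied more than genes of like abundance was asked with limma's variance trend across all 13261 genes. It called 0 of the 9 members and 0% of all genes at an adjusted p under 0.05, and 0 members against 5.44% of genes at an unadjusted p under 0.05. The smallest adjusted p of any gene was 0.834 (limma's F test), with the trend given 3.77 degrees of freedom. After adjustment this test could thus hardly call any gene, so that 0 is not a result about the members. The smallest unadjusted p among members was 0.0846 for Angpt1 (limma's F test), followed by 0.128 for Nrp1 and 0.140 for Angpt2. With a dispersion trend held fixed, a Pearson statistic on the reads called 7.53% of genes and 1 member, Angpt1, at an adjusted p of 0.0429. That call was lost without replicate 1 (adjusted p = 0.857), without replicate 2 (0.297), without replicate 4 (0.0793) and with mitochondrial genes out of the total (0.0982); it held without replicate 3 (0.0313) and with median-of-ratios scaling (0.0230).

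On the log2 scale the SD over animals was 0.48 for Angpt1, 0.36 for Nrp1, 0.28 for Angpt2, 0.24 for Kdr, 0.22 for Vegfa, 0.21 for Flt1, 0.15 for Tek and Tie1 and 0.11 for Nrp2. The median over all genes was 0.18. Among the 200 genes nearest in mean level, 10.5% had a larger SD than Angpt1, 12% a larger one than Angpt2 and 16% a larger one than Nrp1. For Vegfa the share was 42.5%, for Tek 62.5% and for Nrp2 72.5%, so these sat near or below the middle of genes of their level. Some of these spreads rest on a single animal. Without replicate 2 the SD of Vegfa was 0.081 and that of Nrp2 0.011, and without replicate 3 that of Tie1 was 0.039 and that of Kdr 0.14. Without replicate 1 the SD of Angpt1 was 0.28, below those of Nrp1 (0.37) and Angpt2 (0.34) in the same 3 animals.

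**Figure D2:**
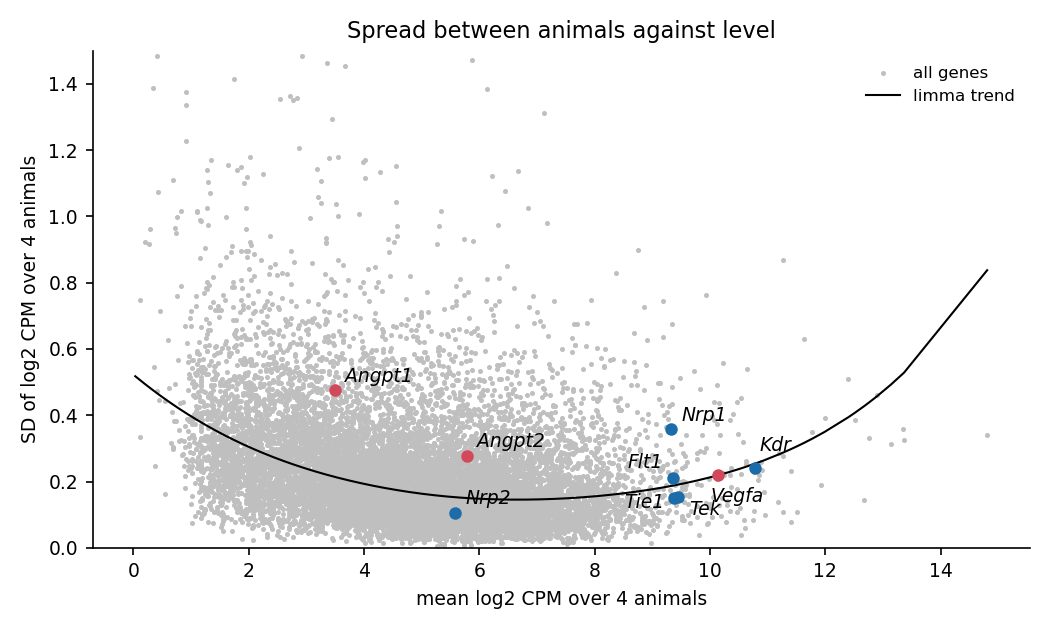
SD of log2 CPM over 4 animals (vertical) against mean log2 CPM (horizontal) for all genes (grey), with the limma trend as a black line, ligands in red and receptors in blue; 15 genes above an SD of 1.5 lie outside the plot. Angpt1 at 0.48, Nrp1 at 0.36 and Angpt2 at 0.28 lie above the trend, whereas Nrp2 at 0.11 lies below it.

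Ligand and receptors were then compared within each animal. Because length cancels only between animals, the variation of the difference is read here and its sign is not. The log2 difference between Vegfa and the mean of the 6 receptors was 1.33, 0.93, 1.17 and 1.24 in replicates 1 to 4, a mean of 1.17 ± 0.17 (SD, n = 4). Without replicate 2 its SD was 0.079. The ratio of Vegfa to the geometric mean of the 6, which include the angiopoietin receptors Tek and Tie1, was thus lowest in replicate 2, at 1.91, and highest in replicate 1, at 2.51.

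The spread of the difference was then read receptor by receptor. Relative to Kdr the log2 difference was -0.46, -0.72, -0.76 and -0.60, with an SD of 0.13, or 0.083 without replicate 1 and 0.15 without replicate 2. Relative to Flt1, it was 1.00, 0.35, 0.74 and 1.046, with an SD of 0.32, or 0.16 without replicate 2, and the Vegfa to Flt1 ratio moved from 1.28 in replicate 2 to 2.06 in replicate 4. Relative to Tek the ratio was 1.16 in replicate 2 and between 1.76 and 1.87 in the other 3 animals. Against Nrp1 the order was different, from a ratio of 2.20 in replicate 1 to 1.45 in replicate 4. The SD of the difference was 0.33 for Tek, 0.20 for Tie1, 0.25 for Nrp1 and 0.13 for Nrp2. Without replicate 2 it was 0.046 for Tek, 0.12 for Tie1, 0.30 for Nrp1 and 0.090 for Nrp2, so the order of the receptors by this spread changed. For Nrp1 it was 0.16 without replicate 1. With 4 animals no correlation was computed, and whether these spreads differ between receptors was not tested.

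**Figure D3:**
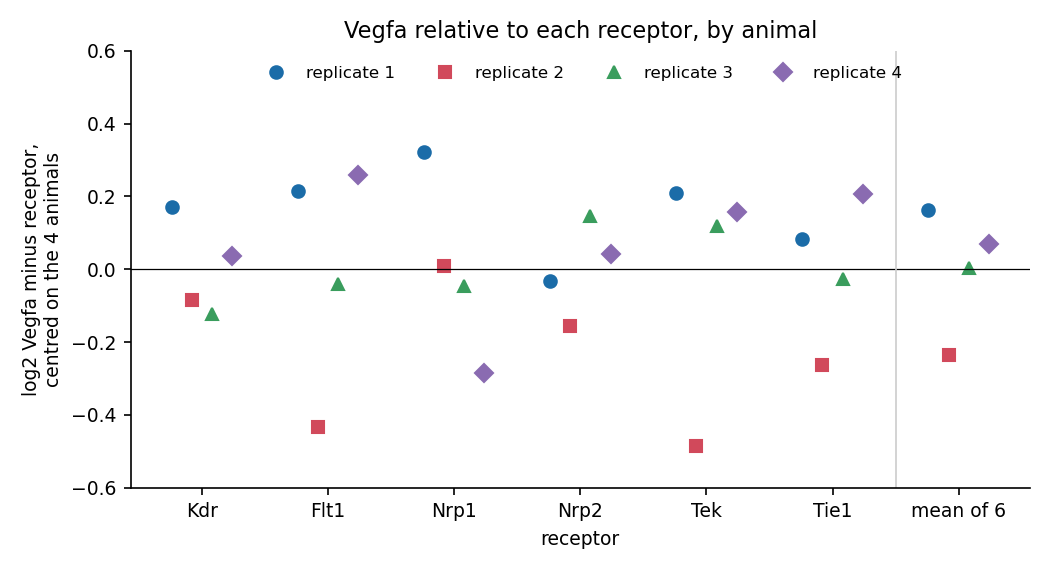
Log2 difference between Vegfa and each receptor, and the mean of the 6 receptors, in each animal, centred on the mean of the 4 animals; symbols are animals. For Flt1 and Tek replicate 2 is the lowest animal, with Vegfa to receptor ratios of 1.28 and 1.16, while for Kdr the SD over the 4 animals is 0.13.

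The angiopoietins were compared in the same way. The log2 difference between Angpt1 and Angpt2 was -1.70 in replicate 1 and -2.48, -2.34 and -2.63 in replicates 2 to 4, a mean of -2.29 ± 0.41 (SD, n = 4). It was least negative in replicate 1, and without that animal the SD was 0.14. The Angpt1 to Angpt2 ratio was accordingly 0.308 in replicate 1 and 0.162 to 0.197 in the others.

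Levels in whole glomeruli depend on how many cells of each type a library holds, and in bulk RNA fewer cells of a type and less RNA per cell cannot be told apart. The members were therefore set beside the marker lists. The podocyte list mean, relative to its own average over animals, stood at 0.47, -0.60, -0.10 and 0.23 (log2) in replicates 1 to 4, with 17 of 18 genes highest in replicate 1 and 17 of 18 lowest in replicate 2. The endothelial list stood at -0.25, 0.14, 0.23 and -0.13, with 16 of 20 genes highest in replicate 3 and 17 of 20 lowest in replicate 1. Over all genes 27.7% were highest in replicate 1, 31.5% lowest in replicate 2, and 35.0% lowest in replicate 1. The proximal tubule list stood at 0.42, 0.10, -0.59 and 0.07, and its part in the results was not tested.

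Vegfa and Angpt1 were first set beside the podocyte list. The SD of Vegfa minus the podocyte list was 0.35, against 0.22 for Vegfa alone: like the list it was lowest in replicate 2, but it was not highest in replicate 1. This rested on replicate 1, without which the SD was 0.25, against 0.27 for Vegfa alone. The log2 difference between Vegfa and the list was 1.87 in replicate 1 and 2.59, 2.60 and 2.16 in replicates 2 to 4. Against the other lists the SD of the Vegfa difference ran from 0.14 (lymphatic) to 0.56 (proximal tubule), with 0.34 for the endothelial list. Angpt1 minus the podocyte list had an SD of 0.17, against 0.48 for Angpt1 alone, and both were highest in replicate 1 and lowest in replicate 2. Leaving out any replicate gave an SD of that difference between 0.077, without replicate 4, and 0.20, without replicate 3. Against the mesangial and pericyte list, whose cells are another known source of angiopoietin 1, the SD of the Angpt1 difference was 0.58, and 0.22 without replicate 1.

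Among the receptors, Flt1 had a smaller SD relative to the endothelial list than alone in all 4 animals and without any of them, while for Kdr, Nrp1, Tek and Tie1 the relation depended on which animals were used. Flt1 minus the endothelial list varied by an SD of 0.047, against 0.21 alone, and stayed between 0.022 and 0.057 when any replicate was left out. Tek had 0.11 against 0.15 alone, but 0.12 against 0.12 without replicate 1 and 0.13 against 0.13 without replicate 2, and 0.022 against 0.18 without replicate 3. Tie1 had 0.16 against 0.15 alone, 0.11 against 0.18 without replicate 1 or replicate 2, and 0.20 against 0.039 without replicate 3. For Kdr the SD relative to the list was 0.25, against 0.24 alone. That value rested on replicate 2, where the log2 difference between Kdr and the list was 2.73, against 3.21, 3.19 and 3.28 in replicates 1, 3 and 4, and without it the SD was 0.051. Nrp1 had 0.40 against 0.36 alone, and 0.30 against 0.35 without replicate 2. Over the 4 animals Nrp2 had 0.29 against 0.11 (0.069 relative to the 3 lymphatic endothelial markers measured) and Angpt2 0.45 against 0.28. The smaller SD against the lymphatic markers was not particular to Nrp2. Every other member except Tek (0.20 against 0.15) also had a smaller SD against them than alone, such as Tie1 (0.098 against 0.15) and Vegfa (0.14 against 0.22). The log2 difference between the mean of the 6 receptors and the endothelial list was 1.30 ± 0.17 (SD, n = 4), from 1.08 in replicate 2 to 1.45 in replicate 4, with an SD of 0.10 without replicate 2. These comparisons of 9 members with 8 lists are descriptions over 4 animals, other than those of Vegfa with the podocyte list and of the receptor mean with the endothelial list chosen after the values were seen, and the part that cell numbers play was not tested.

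**Figure D4:**
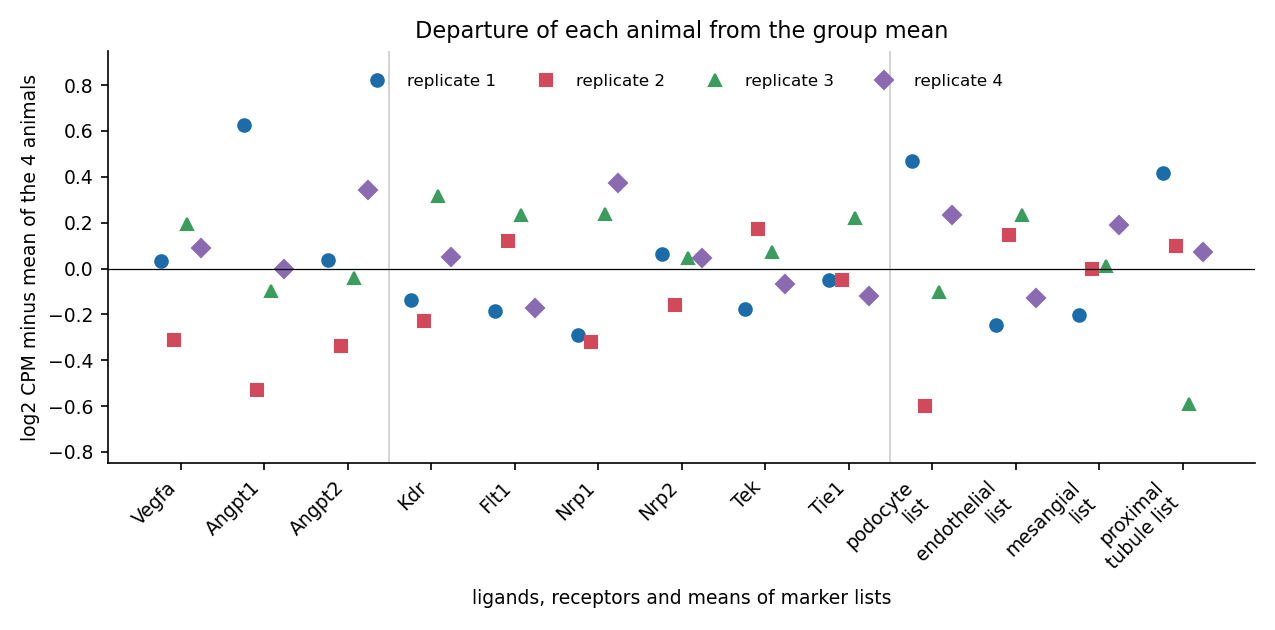
Log2 CPM of each animal minus the mean of the 4 animals, for the 3 ligands, the 6 receptors and the means of 4 marker lists; symbols are animals. Angpt1 and the podocyte list share replicate 1 at the top (0.63 and 0.47) and replicate 2 at the bottom (-0.53 and -0.60), and Flt1 and the endothelial list place replicates 2 and 3 above replicates 1 and 4.

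**Figure D5:**
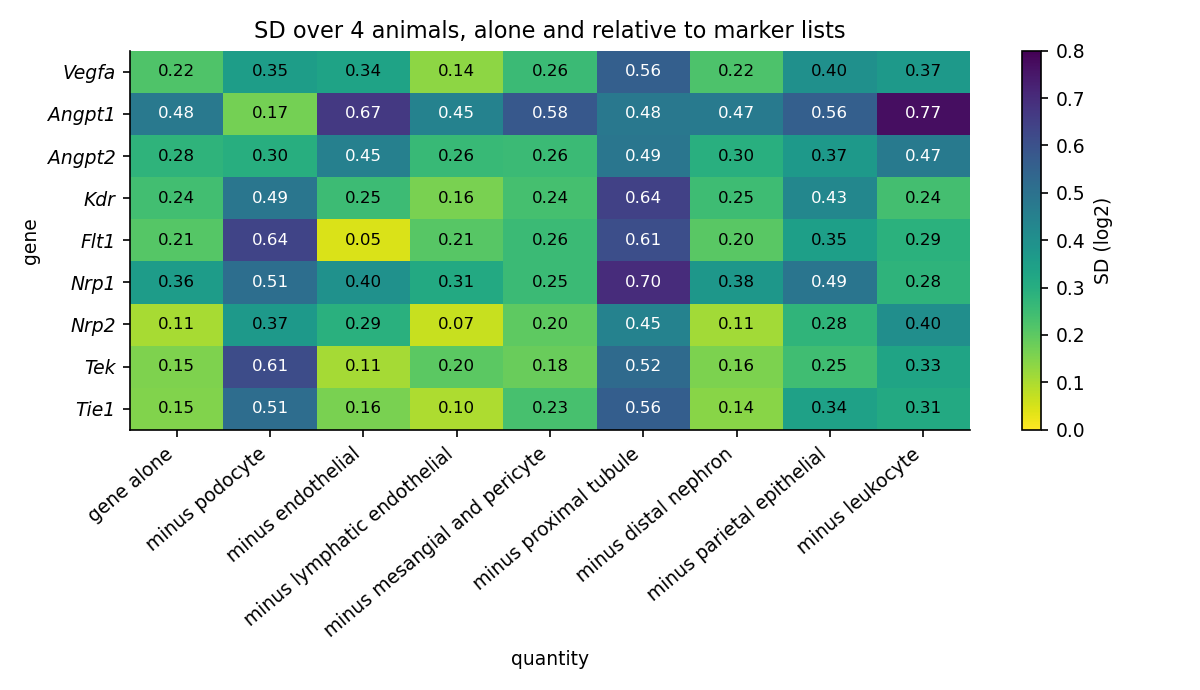
SD over 4 animals (log2, colour and printed value) of each gene alone and of each gene minus the mean of each marker list. The smallest values against the podocyte and endothelial lists are those of Angpt1 (0.17) and Flt1 (0.05).

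The other genes of the pathway were read from lists. Of the other ligands, 9 of 12 were measured. Among these limma called 0 adjusted and 2 unadjusted, against 0% and 5.44% of all genes. The chi-square test called 7, against 69.5% of all genes. At the fixed trend 4 were called, namely Vegfd, Sema3c, Sema3e and Sema3g, against 7.53% of all genes. The median SD of the list was 0.23, against 0.18 over all genes. The 6 class 3 semaphorins measured, which use neuropilins and plexins as receptors, ranged in SD from 0.14 for Sema3d to 0.72 for Sema3e; Sema3b (0.20) and Sema3f (0.23) were, like Sema3d, not called at the fixed trend. Sema3e, the plexin D1 ligand, had 121, 41.0, 58.0 and 102 CPM in replicates 1 to 4 and the largest SD of the list. Sema3g had 4826, 1789, 2878 and 4043 CPM. Vegfd, a lymphatic growth factor, had 69.7, 50.04, 65.9 and 93.2 CPM, while Vegfc, its relative, had the smallest SD (0.097) at 14.0 ± 0.92 CPM (SD, n = 4). Sema3e and Sema3g were highest in replicate 1 and lowest in replicate 2, as was the podocyte list.

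Among further receptors and partners, 15 of 16 genes were measured, with a median SD of 0.23. Here limma called 0 adjusted and 1 unadjusted, against 5.44% of all genes unadjusted, and the chi-square test 14, against 69.5%. The fixed trend, which called 7.53% of all genes, called only Itgav, an integrin subunit, at 152, 64.2, 89.2 and 130 CPM. This was the largest SD of the list, 0.56, and Plxna2, a semaphorin receptor, had the smallest at 0.13. A total of 9 of the 15 were highest in replicate 3, against 29.6% of all genes and 16 of 20 endothelial markers; Cdh5, Ptprb and Robo4 are in both lists. Among them Plxnd1, the receptor for Sema3e, had 541, 484, 718 and 615 CPM, and Ptprb, the endothelial phosphatase that dephosphorylates TEK, had 567, 686, 733 and 524 CPM. Flt4 (VEGFR3), the receptor for Vegfc and Vegfd, had 83.8, 95.5, 116 and 90.6 CPM.

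Signalling intermediates downstream of KDR and TEK were measured for 30 of 30 genes and were the most even of these lists, with a median SD of 0.14. SD varies with level, and the median log2 level of this list was 6.61, against 4.85 over all genes. The chi-square test called 24 of 30, against 69.5% of all genes, and limma 0 adjusted and 2 unadjusted, against 5.44% unadjusted. At the fixed trend 2 were called, Prkca and Foxo1, against 7.53% of all genes. Foxo1, the transcription factor that TEK signalling restrains through AKT, had 64.5, 47.5, 92.1 and 58.9 CPM (SD of log2 0.40). Prkca, a protein kinase C gene, had the largest SD (0.50) and Mapk14, the p38 kinase gene, the smallest (0.049).

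Endothelial genes that VEGF or FOXO1 is known to regulate were measured for 15 of 18 genes and had a median SD of 0.31. The chi-square test called 15 of 15, against 69.5% of all genes, and limma 0 adjusted and 1 unadjusted, against 5.44% unadjusted. The fixed trend called 5, Dll4, Nr4a1, Adamts1, Cxcr4 and Igfbp3, against 7.53% of all genes. In this list 11 of 15 genes were lowest in replicate 1, against 35.0% of all genes, and 7 highest in replicate 3, against 29.6%. The endothelial markers were likewise mostly lowest in replicate 1 (17 of 20) and highest in replicate 3 (16 of 20), and their part in these counts was not tested. Dll4, the Notch ligand of tip cells, had 85.7, 95.2, 139 and 146 CPM, above in replicates 3 and 4 as Nrp1 was. Cxcr4, a chemokine receptor also carried by leukocytes, had the largest SD, 0.65, with its highest value in replicate 3 (19.0 CPM) and its lowest in replicate 1 (6.41 CPM), the animals where the leukocyte list was also highest and lowest (0.46 and -0.49). Rcan1, a calcineurin inhibitor, had the smallest at 0.15.

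Because Vegfa is a classical HIF target, the hypoxia pathway was read too. Of 9 regulators 8 were measured, with a median SD of 0.16, and of 20 symbols of HIF-induced genes 18, with a median SD of 0.17. The symbols not found, Ca9 and Car9, name the same gene. For regulators the chi-square test called 6 of 8 and for induced genes 17 of 18, against 69.5% of all genes. In both lists limma called 0 adjusted or unadjusted, against 5.44% of all genes unadjusted, and the fixed trend 0, against 7.53%. The regulators ran from Vhl, the ubiquitin ligase subunit that removes HIF, with an SD of 0.052, to Egln3, a HIF prolyl hydroxylase, with 0.22. Among induced genes the glycolytic Aldoa had the smallest SD (0.075) and Ankrd37 the largest (0.44), at 3.63 ± 1.09 CPM (SD, n = 4).

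The genes nearest to each member in pattern were found by the root-mean-square (RMS) distance between log2 values centred over the 4 animals, among 5593 genes with a log2 value of at least 5 in each animal. Nearest to Vegfa were Tbc1d2b (RMS distance 0.020), Btrc, Spry4, Sh3bp5 and Plpp3 (0.037), against a median distance of 0.21. Nearest to Kdr were Plxnd1 (0.029), Myh7b and Efnb2, the ephrin B2 gene of arterial endothelium (0.031). Flt1 was nearest to Gng11 (0.015), Jpt1 and Nsrp1, and Tek to Pfdn5, Rps20 and Atg101 (0.019 to 0.020). The nearest to Nrp1 were Lpcat1 (0.053), Egr1 and Serpinb9, and those to Nrp2 were C2cd2 (0.0070), RGD1311703 and Anapc1. Tie1 was nearest to Arid1a (0.0066), Kmt2d and Dnmt1, Angpt1 to Man2a2 (0.076), Gmfb and LOC100911572, and Angpt2 to LOC100911104 (0.024) and Filip1l. Between members the closest pairs were Flt1 with Tek (0.099) and Vegfa with Nrp2 (0.11), and the farthest Angpt1 with Flt1 (0.55). These distances rest on 4 animals, and no shared function is read from them.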

How the data were processed

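Polyadenylated RNA from sieved glomeruli of 4 ADR-treated rats was sequenced from a directional library kit after a RIN above 7, per the labels' protocols. HISAT2, featureCounts, Subread and limma and the build Rnor_6.0 are named in the submitters' processing notes; versions, the strand setting and the annotation release are not given in the sources used here. The deposited table holds log2 values for 13265 genes; 4 rows with displaced values were left out, and 116 rows share their symbol with another row. Value columns that belong to no sample numbered 0. From the values, 2 to the power of each deposited log2 value was a whole number of reads plus 0.5, times a constant per sample, for 100% of values within 0.01 reads, so log2 CPM and reads were recovered. A read was worth 0.0617 to 0.0737 CPM.

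Samples were matched to columns by title; replicate numbers follow accession order. The labels list them as separate samples; p-values measure the spread between these samples, which may be partly technical. Tests were limma 3.58.1 (R 4.3.3, intercept-only fit with trend, F test of residual variance), the index of dispersion of the reads by chi-square (3 degrees of freedom) and a Pearson statistic at a dispersion trend set in 40 bins of mean reads. Each was fitted on 13261 genes and adjusted by Benjamini-Hochberg at 0.05. The first and second are the main tests and the last is an alternative. All were also run on simulated reads in which dispersion did not differ between genes. Because such reads differ from these data, those runs do not show the power of the tests here. Alternatives were median-of-ratios scaling, a total without the 20 mitochondrial genes, log2(CPM + 1), a filter at log2 of at least 1, a robust prior, list medians and leaving out each replicate; SDs of single genes and of differences without a replicate were added after seeing the data. Intervals cover counting error only. The exact sign-flip permutation test of the differences cannot go below p = 0.125 with 4 animals and reads a sign that depends on length, so nothing is drawn from it. Named genes are the members, the genes of largest and smallest SD in each list, those nearest in pattern (5 for Vegfa, 3 for each other member) and list genes set beside a member; genes called at the fixed trend were named after their values were seen, and some genes that the rule names are not reported here. Members and lists were chosen with earlier results of these data known.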

Additional observations from a re-analysis of the deposited data

Results flagged for a closer look

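Of 29 results examined (the 9 members, 6 differences and 14 list means), 1 had an animal far from the rest, judged by the ratio of its gap to the whole range against Dixon's 95% critical value, and chance alone gives 1.45. It was Nrp2, where replicate 2 (42.9 CPM) lay apart from the other 3 animals (49.4 to 50.1 CPM) with a ratio of 0.912. Replicate 2 also had the largest share of mitochondrial reads, 12.8%, whose part in this was not tested. With those genes out of the total, replicate 2 was still lowest, by 0.12 on the log2 scale against 0.20 before, and the adjusted p of the chi-square test on reads was 0.209.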

How the results depend on the processing

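Across 126 recomputations, 121 gave the same reading, 5 moved and 0 changed sign. For a mean, the same reading meant a shift of less than its SD over the 4 animals. Leaving out 1 animal cannot shift a mean that far, and rescaling cannot shift a difference within an animal. Much of this tally was therefore fixed in advance, and nothing is drawn from it. It also does not judge the SDs, some of which changed without a single animal, as given above. The number of members called for excess variance was 0 under limma, also without each replicate in turn, and 1 at the fixed dispersion trend. In each of these limma settings 0 of all genes were called, so the unchanged 0 does not show stability. The number beyond counting error was 8 to 9 without each replicate, where 7326 to 8678 of the 13261 genes were called. Vegfa minus the receptors was 1.17 with the mean of 6, 0.76 with their median and 0.075 with Kdr and Flt1 alone, as each choice averages other receptors, and 1.11 to 1.24 without each replicate. Vegfa minus the podocyte list was 2.30 with the list mean and 2.90 with the list median. The mean of Nrp2 rose from 5.58 to 5.73 log2 CPM with mitochondrial genes out of the total, as every level did by construction. Kdr and Nrp1 were lowest in replicate 2, but under that scaling replicates 1 and 2 were 0.0069 apart for Kdr and Nrp1 was lowest in replicate 1; Flt1 was lowest in replicate 1, or in replicate 4 with median-of-ratios scaling. Differences within an animal do not depend on scaling. Depth limits Angpt1, with 126 to 235 reads. No paired analysis was possible because there is a single group.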

Other observations

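Lists of other cells in the sieved tissue also differed between animals. Leukocyte markers stood at -0.49, -0.07, 0.46 and 0.09 around their average (log2) in replicates 1 to 4, with 7 of 8 genes lowest in replicate 1. The B cell gene Cd79b had the largest SD, 1.18, at 1.70, 2.78, 11.7 and 4.66 CPM, and the macrophage gene Cd68 the smallest, 0.14. Among mesangial and pericyte markers the SD was smallest for Cspg4 (0.13). Proximal tubule genes were lowest in replicate 3 in 12 of 12 cases, against 19.6% of all genes, from Cubn (SD 0.59) to Miox (SD 0.19). In the distal nephron list the SD ran from Slc12a1 (0.098) to Aqp2, the collecting duct water channel (0.56), and in the parietal list from Pax2 (0.16) to Cldn1 (0.57). Among lymphatic markers Pdpn, which podocytes also express, had an SD of 0.33 and Flt4 0.20. In the podocyte list the SD was largest for Magi2 (0.94) and smallest for Pla2r1 (0.18), and in the endothelial list largest for Egfl7 (0.39) and smallest for Ehd3 (0.15). Of these lists limma called 0 genes adjusted; unadjusted it called 10 of 18 podocyte, 0 of 20 endothelial and 7 of 12 proximal tubule genes, and 3 of 8 leukocyte, 2 of 6 parietal, 2 of 10 mesangial and pericyte, 1 of 9 distal nephron and 0 of 3 lymphatic genes, against 5.44% of all genes.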
